A study of Mus musculus with 18 samples.

Results

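The 10 genes described here belong to the BCL2 family, the proteins that decide whether the outer membrane of a mitochondrion is opened during cell death, and they are 10 of the 30452 genes in the expression tables. They were picked out by gene symbol as survival and death genes of the family, and the list was drawn up with earlier results of these data known. Each symbol matched 1 row in both tables. Of the 10, 5 encode survival proteins (Bcl2, Bcl2l1, Mcl1, Bcl2a1b and Bcl2a1d), 4 encode BH3-only proteins (Bmf, Bcl2l11, Bbc3 and Pmaip1), and Bax encodes an effector.

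Survival proteins of this family hold back the effectors BAX and BAK, which otherwise oligomerise and release cytochrome c from mitochondria. BH3-only proteins carry stress signals to the family by binding the survival proteins in a groove, and some also bind BAX directly. Germinal centre B cells are known for a high rate of apoptosis, low BCL2 protein and a need for MCL1, and signals through CD40 and the antigen receptor are known to raise A1, the product of the Bcl2a1 genes, and BCL-XL, the product of Bcl2l1.

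RNA was measured in light zone germinal centre B cells (B220+ CD38- CD95+ CD83hi CXCR4lo) sorted from the popliteal lymph nodes of mice, in 18 libraries. All cells were B1-8hi B cells, whose heavy chain gives binding to the hapten NP, and all were transferred into C57BL/6 hosts that had been primed with OVA-alum 2 weeks before. All hosts were then given NP-OVA in the footpads and, on day 6, anti-DEC205-OVA, an antibody to the receptor DEC205 that carries ovalbumin. The groups at 12 h after that antibody were DECP cells, which are Ly75+/+ CD45.1 and made up 15% of the transferred mix (3 libraries), and DECN cells, which are Ly75-/- CD45.1/2 and made up 85% (3 libraries). At 24 h there were DECP cells whose hosts also received 2.5 mg/kg of rapamycin, which blocks the growth kinase mTORC1, together with the antibody (4 libraries), DECP cells without rapamycin (4 libraries) and DECN cells (4 libraries). The Ly75 genotype and the CD45 allele differ together between DECP and DECN cells. No group of rapamycin-treated DECN cells was analysed here. Neither the animals' ages nor which libraries stem from separate animals is given by the labels, so the p-values below measure the spread between libraries, which may be technical.

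Levels are in TPM, the share of a library's transcripts corrected for transcript length, so levels of different genes can be set side by side within a library. TPM does not keep the number of reads, so the depth of each library is unknown. The tables for 12 h and 24 h stand apart, and every difference was taken within a table. Fewer cells of a type and less RNA per cell cannot be told apart in such sorted populations. A difference is called where limma's adjusted p over all genes tested is under 0.05, and its size is given as log2 of TPM + 1, a scale that understates the change of low genes.

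Ly75, which encodes DEC205 itself, averaged 32.6 ± 6.80 TPM in DECP cells and 9.40 ± 0.816 TPM in DECN cells at 12 h (SD, n = 3 each). At 24 h it averaged 12.6 ± 4.65 TPM in rapamycin-treated DECP cells, 14.1 ± 3.28 TPM in DECP cells and 5.01 ± 1.67 TPM in DECN cells (SD, n = 4 each). It was therefore higher under the DECP label at both times without being at 0 in DECN cells. Its difference between DECP and DECN cells was 1.68 at 12 h and 1.35 at 24 h on the log2 scale (limma adjusted p = 0.0268 and 0.0308). All 11 listed germinal centre B cell markers had a mean of at least 1 TPM in each of the 5 groups, and so did all 5 listed light zone markers. Their summed levels were not equal between groups. At 12 h the germinal centre list summed to 3274 to 4343 TPM in DECP libraries and 4986 to 5336 TPM in DECN libraries, and the light zone list to 1432 to 1913 TPM in DECP and 1468 to 1722 TPM in DECN libraries. The light zone markers did not move as one there. Ccnd2, Nfkbia and Cd40 averaged 194, 258 and 303 TPM in DECP cells, against 26.5, 91.4 and 241 TPM in DECN cells. Cd83 and Cd86 averaged 655 and 226 TPM in DECP cells, against 867 and 388 TPM in DECN cells. At 24 h the germinal centre list summed to 3540 to 4148 TPM in rapamycin-treated DECP libraries, 2482 to 3233 TPM in DECP libraries and 4099 to 5042 TPM in DECN libraries, and the light zone list to 1395 to 1893 TPM in rapamycin-treated DECP, 954 to 1215 TPM in DECP and 1368 to 1474 TPM in DECN libraries. The part of these differences in the results below was not tested.

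**Figure D1:**
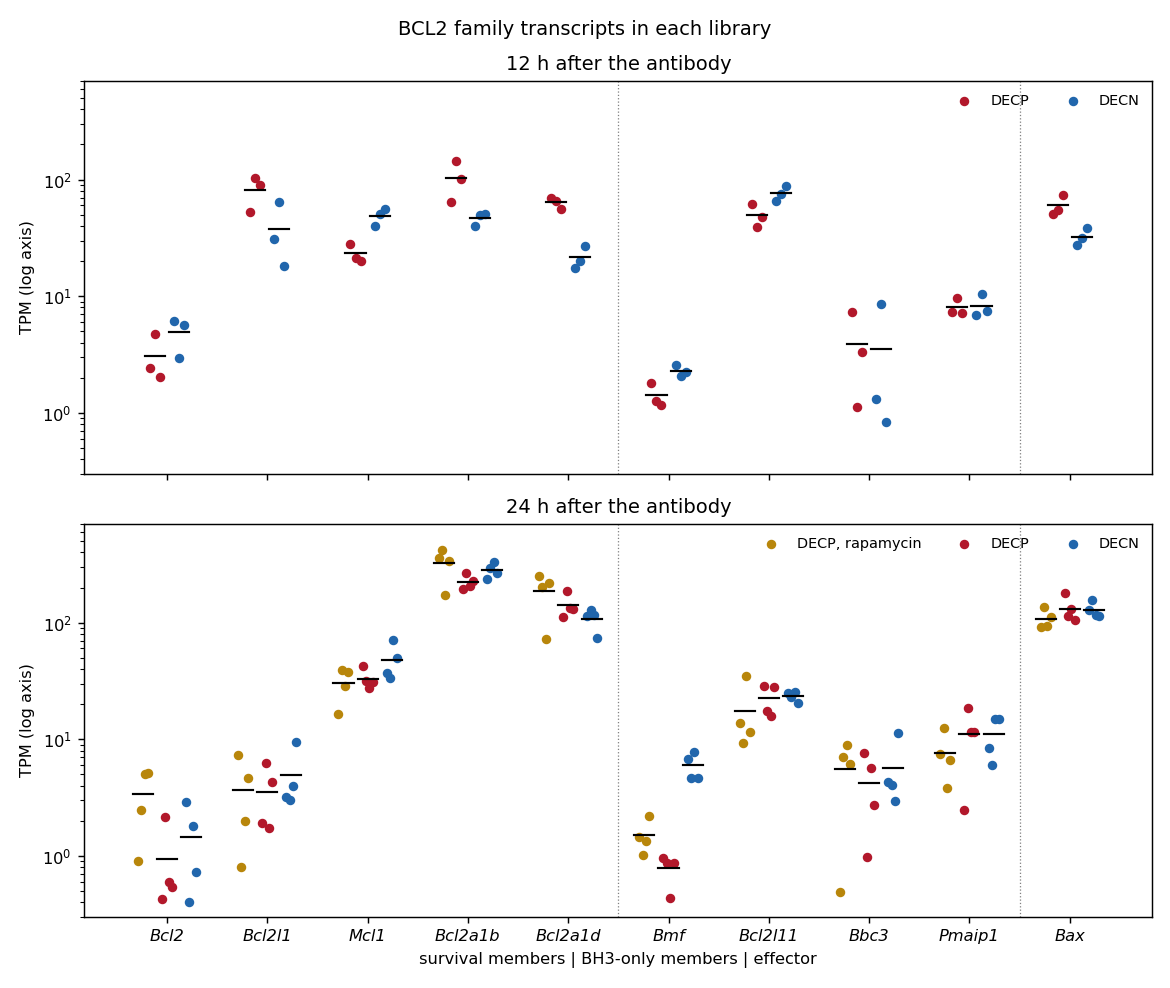
TPM of each of the 10 genes in every library (points, log axis) with the group mean (bar), at 12 h (upper panel) and 24 h (lower panel). At 24 h the 4 DECP points for Bmf lie between 0.438 and 0.959 TPM and the 4 DECN points between 4.61 and 7.82 TPM.

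The genes spanned a wide range of levels in each group. In DECP cells at 12 h the order of mean levels was Bcl2a1b (103 TPM), Bcl2l1 (81.8), Bcl2a1d (63.9), Bax (60.1), Bcl2l11 (49.5), Mcl1 (23.3), Pmaip1 (8.04), Bbc3 (3.91), Bcl2 (3.06) and Bmf (1.42 TPM). The ranges over libraries of the first 5 genes overlapped from each to the next in that order, whereas Bcl2l11 lay above Mcl1, Mcl1 above Pmaip1 and Bcl2 above Bmf in all 3 libraries with no overlap. In DECN cells at 12 h the order began with Bcl2l11 (76.1 TPM), Mcl1 (48.9), Bcl2a1b (46.8), Bcl2l1 (37.8), Bax (32.3) and Bcl2a1d (21.5 TPM). At 24 h Bcl2a1b stood first in all 3 groups, with a mean of 323 TPM in rapamycin-treated DECP cells, 224 TPM in DECP cells and 282 TPM in DECN cells. Bcl2, the founding member, was among the lowest in every group, at 0.933 to 4.89 TPM on average. Bmf was the lowest of the 10 in every group but DECN cells at 24 h, where 3 others lay below it.

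The balance of roles was set side by side within each table. At 12 h Bcl2a1b and Bcl2a1d together gave 60.7% ± 2.15 of the summed TPM of the 5 survival genes in DECP cells and 43.1% ± 6.26 in DECN cells (SD, n = 3 each), and the libraries of the groups did not overlap. The summed survival genes stood at 4.65 ± 1.95 times the summed BH3-only genes in DECP cells and at 1.77 ± 0.186 times in DECN cells, again without overlap, the lowest DECP library being at 2.77 and the highest DECN library at 1.96. At 24 h that ratio was 19.6 ± 9.47 in rapamycin-treated DECP cells, 10.5 ± 1.88 in DECP cells and 9.75 ± 1.86 in DECN cells (SD, n = 4 each), and DECP and DECN libraries overlapped. The rapamycin-treated libraries were at 27.2, 22.5, 5.74 and 23.0, so that the third lay below all the others of the table. These sums over chosen genes are a description and were not tested.

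**Figure D2:**
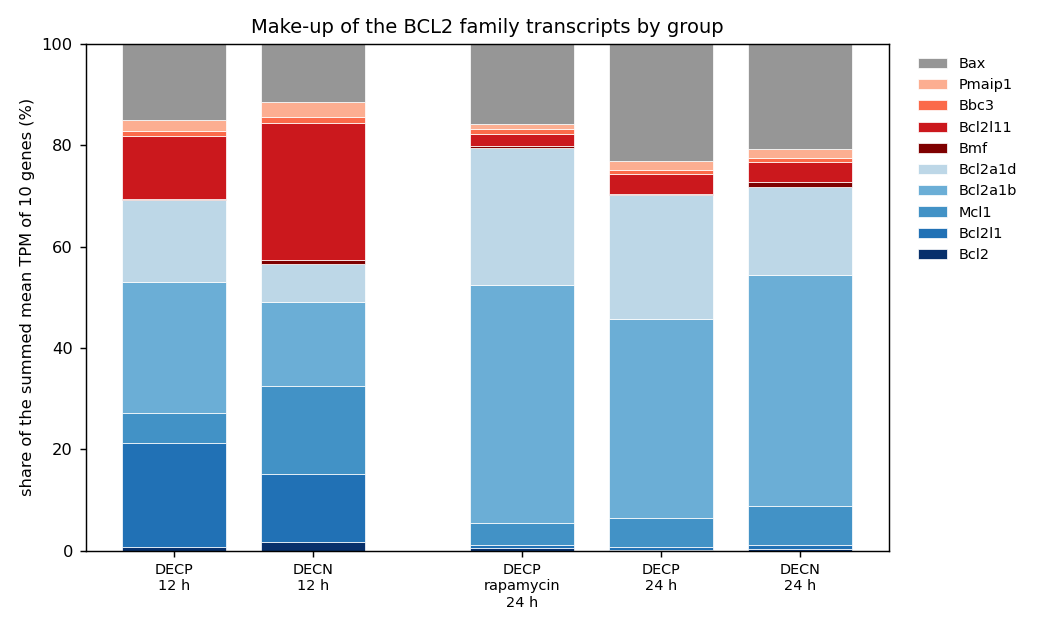
Share of each gene in the summed mean TPM of the 10 genes, by group, in percent, with survival genes in blue, BH3-only genes in red and Bax in grey. Bcl2l11 makes up 12.4% in DECP cells and 26.9% in DECN cells at 12 h, and Bcl2l1 20.5% and 13.4% there.

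Among the survival genes, Bcl2a1d rose in DECP cells at 12 h, as did the sum of the A1 copies. Bcl2a1d (chr9:88723285-88731914, GRCm38, minus strand) and Bcl2a1b (chr9:89199209-89207827, plus strand) are near-identical protein-coding copies on mouse chromosome 9, and both encode A1, a survival protein induced by NF-kB in lymphocytes. Their coding sequences in GENCODE M21 have 516 bases each, of which 510 are identical (98.8%). The 6 differences, counted from 1 at the A of the start codon with the base of Bcl2a1b first, are G4T, T48C, A94C, G312A, C381G and T490A. The first 60 coding bases hold the first 2 of these differences (in capitals) and show how little sequence tells the copies apart:
Bcl2a1b: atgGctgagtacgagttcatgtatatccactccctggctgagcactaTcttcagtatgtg
Bcl2a1d: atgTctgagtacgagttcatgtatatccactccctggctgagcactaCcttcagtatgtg
Of the 31-base words in the annotated transcripts, 88.8% of those of Bcl2a1b and 89.1% of those of Bcl2a1d also occur in another gene, and reads that fit both copies are divided between them by an estimate. What share of reads this touched was not measured. The split between the copies is therefore uncertain, and the sum of the 4 copies (Bcl2a1a, Bcl2a1b, Bcl2a1c and Bcl2a1d) does not depend on it. Bcl2a1b also overlaps the predicted gene Gm29094 on the same strand, and Bcl2a1d overlaps Gm10634 on the opposite strand. The library preparation does not mark strand, so reads from these genes could enter the values of the copies and of their sum. That was not measured.

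The stretches before the start sites of the copies are alike as well. RefSeq's promoter windows (GRCm38.p6, 250 bases before to 50 after the annotated start) are chr9:89199023-89199322 on the plus strand for Bcl2a1b and chr9:88731801-88732100 on the minus strand for Bcl2a1d. They are set apart by differing annotated starts, and over the 256 aligned columns they share, 247 are identical (96.5%), with 3 mismatched bases and 6 gap columns. They are shown because both genes stood higher in DECP cells at 12 h, with the bases that differ within the shared stretch in capitals:
Bcl2a1b: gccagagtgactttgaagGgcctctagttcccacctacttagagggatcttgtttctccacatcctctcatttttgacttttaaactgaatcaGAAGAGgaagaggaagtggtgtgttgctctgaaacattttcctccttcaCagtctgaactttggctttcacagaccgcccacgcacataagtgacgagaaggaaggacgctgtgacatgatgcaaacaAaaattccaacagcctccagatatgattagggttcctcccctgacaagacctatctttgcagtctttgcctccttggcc
Bcl2a1d: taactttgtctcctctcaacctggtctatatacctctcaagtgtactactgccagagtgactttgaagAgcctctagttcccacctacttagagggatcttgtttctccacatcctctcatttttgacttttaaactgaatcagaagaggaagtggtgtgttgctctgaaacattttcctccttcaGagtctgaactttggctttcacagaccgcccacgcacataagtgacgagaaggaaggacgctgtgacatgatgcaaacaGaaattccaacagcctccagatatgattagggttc
Neither window holds the NF-kB consensus, TGTTTAC (a core of forkhead sites) or CACGTG (the E-box) on either strand, which says only that these letters are not in these windows. Of 32851 promoter windows of this length, 4.51% hold the NF-kB consensus, 3.65% TGTTTAC and 7.15% CACGTG. Among the 16 windows of the 9 genes looked up, the NF-kB consensus was found in 1 window each of Bmf, Bcl2l1 and Bbc3, TGTTTAC in 1 each of Bcl2l11 and Bbc3, and CACGTG in 1 each of Bbc3 and Bax.

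Bcl2a1d had 69.9, 66.0 and 55.8 TPM in DECP cells at 12 h, against 17.6, 20.0 and 26.9 TPM in DECN cells. Each DECP library was above each DECN library. The difference was 1.54 with a standard error of 0.24 on the log2 scale (limma adjusted p = 0.0275), and Bcl2a1d was the only 1 of the 10 genes to pass the threshold at 12 h, where 2.89% of 13429 genes did. The call was close to the threshold: with any 1 of the 6 libraries left out the adjusted p lay between 0.050 and 0.108, above the threshold each time, while the difference stayed between 1.42 and 1.71.

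Bcl2a1b had 63.8, 145 and 101 TPM in DECP cells at 12 h and 40.2, 49.2 and 51.2 TPM in DECN cells. The groups did not overlap, and the difference of 1.05 did not pass the threshold (limma adjusted p = 0.120). The sum of the 4 copies was 134, 211 and 159 TPM in DECP cells, against 58.3, 69.2 and 79.1 TPM in DECN cells. Tested as 1 gene, that sum was higher in DECP cells by 1.26 on the log2 scale (limma adjusted p = 0.0385). In the authors' deposited table for 12 h, which gives DECN over DECP, the log2 fold change was -1.49 for Bcl2a1d and -1.07 for Bcl2a1b, with adjusted p of 2.89e-05 and 0.0191.

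At 24 h the A1 copies were the most abundant survival transcripts in every group, and their sum overlapped between all groups. It was 623, 644, 248 and 564 TPM in rapamycin-treated DECP cells, 308, 454, 341 and 367 TPM in DECP cells, and 362, 422, 452 and 342 TPM in DECN cells. The third rapamycin-treated library stood below every other library of the table. Bcl2a1d differed by 0.38 and Bcl2a1b by -0.33 between DECP and DECN cells, and neither passed the threshold (limma adjusted p = 0.623 and 0.511, with 95% intervals of -0.33 to 1.09 and -0.82 to 0.16). Summed, the copies differed by -0.11. Unlike the sum, the estimated split did not overlap between DECP and DECN libraries. The level of Bcl2a1d over that of Bcl2a1b was 0.574 to 0.695 in DECP libraries and 0.274 to 0.487 in DECN libraries, and 0.416 to 0.706 in rapamycin-treated DECP libraries. At 12 h the ratio did overlap, at 0.453 to 1.10 in DECP libraries and 0.407 to 0.525 in DECN libraries. Given the shared sequence, that ratio rests on reads over the positions that differ between the copies.

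Without the third rapamycin-treated library, Bcl2a1b was higher in rapamycin-treated DECP than in DECP cells by 0.74 (limma adjusted p = 0.0458) and Bcl2a1d higher in rapamycin-treated DECP than in DECN cells by 1.07 (adjusted p = 0.0425). With it, the differences were 0.47 and 0.66 and did not pass the threshold (adjusted p = 0.396 and 0.418). Each library was left out in turn, and this one was the lowest of the 24 h libraries in both copies. Its removal raises the rapamycin-treated mean by construction, so these passes carry no weight as support.

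The difference between DECP and DECN cells was compared between the times within 1 fit over all 18 libraries. For the A1 copies, the difference at 24 h minus that at 12 h was -1.38 for Bcl2a1b and -1.16 for Bcl2a1d, and neither passed the threshold (limma adjusted p = 0.116 and 0.335). Bcl2a1b passed with quantile normalization (-1.50, adjusted p = 0.0482), without the first DECP library of 12 h (-1.69, adjusted p = 0.0321) and without the third rapamycin-treated library, which enters only the estimate of the spread (adjusted p = 0.0475). None of the 10 genes passed there, against 0.852% of 11848 genes, and 4 had an unadjusted p under 0.05, against 11% of all genes, which were these and Bax and Bmf. With the copies summed, 3 of the 9 genes then tested had an unadjusted p under 0.05 in limma.

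Mature myeloid cells also express Bcl2a1 genes. The summed level of 10 listed macrophage markers was 675 to 839 TPM in DECP libraries and 1279 to 1663 TPM in DECN libraries at 12 h, nearly all of it Apoe. Of the 10 markers, 5 had a mean of at least 1 TPM in DECP cells and 7 in DECN cells, and C1qa, Csf1r and Adgre1 were under 1 TPM in both. They did not move as one. Cd68, C1qb and C1qc averaged 21.5, 0.372 and 0.313 TPM in DECP cells, against 41.6, 1.31 and 1.08 TPM in DECN cells. Lyz2 and Mertk averaged 8.64 and 2.08 TPM in DECP cells, against 8.21 and 1.70 TPM in DECN cells. Of 9 listed dendritic cell and neutrophil markers, the summed level was 34.8 to 36.2 TPM in DECP libraries and 36.1 to 44.5 TPM in DECN libraries, and S100a8 and S100a9 were listed at 0 in all of them. Within that list Flt3 averaged 7.91 TPM in DECP cells and 3.85 TPM in DECN cells, and Zbtb46 17.1 TPM in DECP cells and 20.9 TPM in DECN cells. The part of such cells in the A1 values was not tested.

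Bcl2l1, which encodes BCL-XL, had 52.7, 103 and 90.2 TPM in DECP cells at 12 h, against 31.2, 63.9 and 18.2 TPM in DECN cells. The highest DECN library lay above the lowest DECP library, and the difference of 1.22 did not pass the threshold (limma adjusted p = 0.202, 95% interval 0.13 to 2.31). At 24 h Bcl2l1 was at 7.34, 0.801, 1.98 and 4.63 TPM in rapamycin-treated DECP cells, 1.92, 6.21, 1.73 and 4.31 TPM in DECP cells, and 3.20, 3.03, 3.96 and 9.49 TPM in DECN cells. Within its own table it was thus the second gene of the family in DECP cells at 12 h and the eighth at 24 h. The tables were made apart, so the levels at the 2 times were not tested against each other.

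Mcl1, whose protein is short-lived and is needed by germinal centre B cells, had lower values in DECP cells at 12 h. It had 28.2, 21.5 and 20.1 TPM in DECP cells and 40.2, 50.9 and 55.7 TPM in DECN cells, without overlap. The difference of -1.04 missed the threshold (limma adjusted p = 0.0666). It passed when only genes with a TPM of at least 5 were tested (adjusted p = 0.0495), and the authors' deposited table lists it at 0.95 for DECN over DECP with an adjusted p of 0.00713. At 24 h Mcl1 averaged 30.5 ± 10.5 TPM in rapamycin-treated DECP cells, 32.9 ± 6.34 TPM in DECP cells and 48.0 ± 17.2 TPM in DECN cells (SD, n = 4 each), and the 3 groups overlapped. The level of the A1 pair over that of Mcl1 was 4.74 to 9.85 in DECP libraries and 1.36 to 1.44 in DECN libraries at 12 h. That gap follows from the higher A1 pair and the lower Mcl1 already given, and is no further result.

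Bcl2 had 2.41, 4.72 and 2.04 TPM in DECP cells at 12 h and 6.09, 2.97 and 5.62 TPM in DECN cells. Those groups overlapped, and the difference of -0.55 did not pass the threshold (limma adjusted p = 0.474). At 24 h it had 0.907, 2.49, 5.0 and 5.13 TPM in rapamycin-treated DECP cells, 0.428, 2.16, 0.598 and 0.544 TPM in DECP cells, and 2.89, 0.400, 1.79 and 0.731 TPM in DECN cells. In 3 of the rapamycin-treated libraries the level was above all 4 DECP libraries. The difference between those groups was 1.12 (95% interval 0.14 to 2.09, limma adjusted p = 0.268). Of the 31-base words of Bcl2, 6.21% occur in another gene, most of them in D630008O14Rik, which overlaps it on the opposite strand.

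None of the 10 genes passed the threshold between rapamycin-treated DECP and DECP cells in limma, where 2.18% of 12783 genes did. Bcl2 was the only 1 of the 10 with an unadjusted p under 0.05, against 13.9% of all genes, and Bmf the only 1 whose groups did not overlap, against 8.96% of all genes, or 3.63% with the rapamycin-treated group higher. The authors' deposited table, which gives DECP over rapamycin-treated DECP, likewise calls 0 of the 10 (7.58% of the 9022 genes with an adjusted p in it), with -1.0 for Bcl2 at an adjusted p of 0.0807 and -0.75 for Bmf at 0.111.

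**Figure D3:**
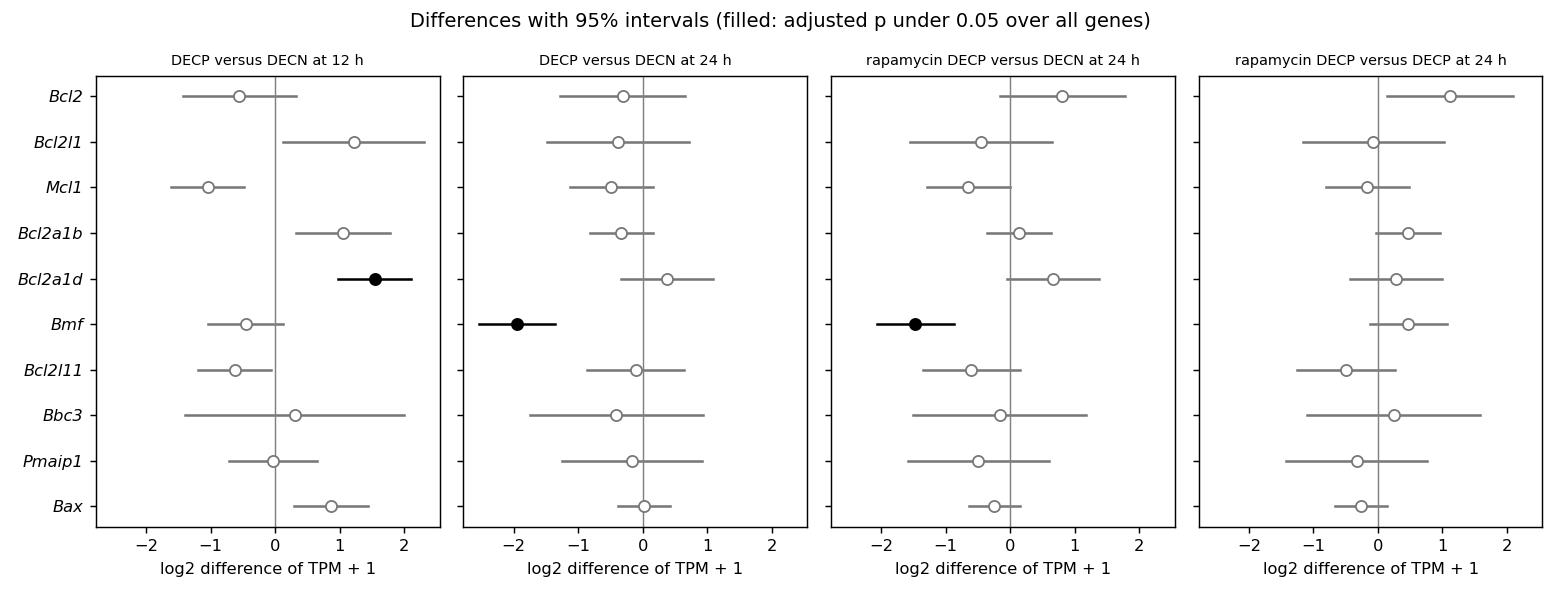
Log2 differences of TPM + 1 (points) with 95% intervals (lines) for the 10 genes in 4 comparisons, filled where the adjusted p over all genes is under 0.05. The filled points are Bcl2a1d at 12 h (1.54) and Bmf at 24 h in DECP cells (-1.94) and in rapamycin-treated DECP cells (-1.47), both against DECN cells.

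Among the BH3-only genes, Bmf fell in DECP cells at 24 h. Bmf (chr2:118528757-118549687, GRCm38, minus strand) encodes a BH3-only protein known to be held at the cytoskeleton and to bind survival proteins when released. It had 0.959, 0.871, 0.438 and 0.869 TPM in DECP cells at 24 h, against 6.73, 4.61, 7.82 and 4.65 TPM in DECN cells. The highest DECP library was well below the lowest DECN library. The difference was -1.94 with a standard error of 0.27 on the log2 scale (limma adjusted p = 0.00213). Of all genes tested in that comparison, 0.587% differed by more in size. Bmf was the only 1 of the 10 genes to pass, against 4.04% of 12783 genes, and the only 1 of them whose groups did not overlap, against 11.5%. Counted by direction, 1.32% of all genes passed with DECP lower and 4.7% had non-overlapping groups with DECP lower.

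Bmf is a low transcript, and 1 TPM is also the level of the filter. Its DECP libraries at 24 h all lay under that level, at 0.438 to 0.959 TPM. Bmf was therefore tested through the DECN and rapamycin-treated libraries, where it was higher, and its call carries no weight as a count. With no filter on low values it passed at a limma adjusted p of 0.00541. Its difference between DECP and DECN cells at 24 h passed the threshold with each of the 12 libraries left out in turn (adjusted p 0.00312 to 0.00903) and moved to -2.79 with a pseudocount of 0.1 and to -0.91 with a pseudocount of 5. With genes under 5 TPM left out Bmf was not tested. The authors' deposited table for DECN over DECP at 24 h lists a log2 fold change of 2.39 for Bmf (adjusted p = 6.0e-13), with authors' means, in a unit not stated there, of 17.7 in DECP cells and 134 in DECN cells.

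Rapamycin-treated DECP cells had 1.45, 1.01, 1.34 and 2.18 TPM of Bmf at 24 h. All 4 libraries were above the 4 DECP libraries and below the 4 DECN libraries. Bmf was lower than in DECN cells by 1.47 on the log2 scale (limma adjusted p = 0.0252). In that comparison 1.31% of 12783 genes passed, 0.532% with rapamycin-treated DECP cells lower, and 8.57% did not overlap between the groups, 3.94% in that direction. That call was lost without any 1 of the 4 rapamycin-treated libraries and without DECN library 1, 3 or 4 (adjusted p 0.0557 to 0.0763). Against DECP cells the difference was 0.47, which did not pass the threshold (limma adjusted p = 0.497, 95% interval -0.12 to 1.06). Both 24 h contrasts with DECN cells share the same 4 DECN libraries, and both contrasts with DECP cells the same 4 DECP libraries.

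At 12 h Bmf had 1.80, 1.27 and 1.18 TPM in DECP cells and 2.55, 2.08 and 2.25 TPM in DECN cells. The groups did not overlap, with DECP lower, and the difference of -0.45 did not pass the threshold (limma adjusted p = 0.367). The difference at 24 h minus that at 12 h was -1.49 (limma adjusted p = 0.0632), and it passed the threshold with a pseudocount of 5, with quantile normalization and without the intensity trend (adjusted p 0.0386, 0.0429 and 0.0439). Bmf made up 5.16% ± 2.58 of the summed BH3-only TPM in rapamycin-treated DECP cells at 24 h, 2.01% ± 0.50 in DECP cells and 12.9% ± 2.93 in DECN cells (SD, n = 4 each).

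Markers of other cells and B cell states also differed between the groups at 24 h. The summed level of 7 naive or memory B cell markers, led by Fcer2a, was 164 to 259 TPM in rapamycin-treated DECP libraries, 78.8 to 134 TPM in DECP libraries and 156 to 177 TPM in DECN libraries. Of 4 dark zone markers the sum was 153 to 285 TPM in rapamycin-treated DECP libraries, 234 to 357 TPM in DECP libraries and 117 to 128 TPM in DECN libraries. These markers did not move as one. In the same order of groups, Ccnb1 averaged 53.5, 155 and 50.8 TPM and Cxcr4 126, 111 and 55.6 TPM. Foxo1 averaged 7.09, 6.94 and 7.99 TPM and Polh 6.89, 10.7 and 8.05 TPM. The T cell list, whose top gene was Lck, summed to 155 to 173 TPM in rapamycin-treated DECP, 110 to 136 TPM in DECP libraries and 139 to 192 TPM in DECN libraries, with 3 of the 9 markers at a mean of at least 1 TPM in either DECP group and 6 in DECN cells. Cd3d went the other way, at 36.5 TPM in rapamycin-treated DECP cells, 41.1 TPM in DECP cells and 16.1 TPM in DECN cells on average, and Cd3e, Cd5 and Icos were over 1 TPM only in DECN cells (1.14, 1.15 and 1.33 TPM) among these 3 groups. The macrophage list, again nearly all Apoe, summed to 620 to 1191 TPM in rapamycin-treated DECP, 412 to 622 TPM in DECP libraries and 1031 to 1130 TPM in DECN libraries, with 4 of the 10 markers at a mean of at least 1 TPM in rapamycin-treated DECP cells, 2 in DECP cells and 5 in DECN cells. C1qa, C1qb, C1qc and Adgre1 were listed at 0 in all 8 DECP libraries, with and without rapamycin, and had means of 0.335, 0.525, 2.67 and 1.51 TPM in DECN cells. Lyz2 averaged 4.77 TPM in rapamycin-treated DECP cells, 0.133 TPM in DECP cells and 1.02 TPM in DECN cells. The part of these cells and states in the Bmf values was not tested.

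**Figure D4:**
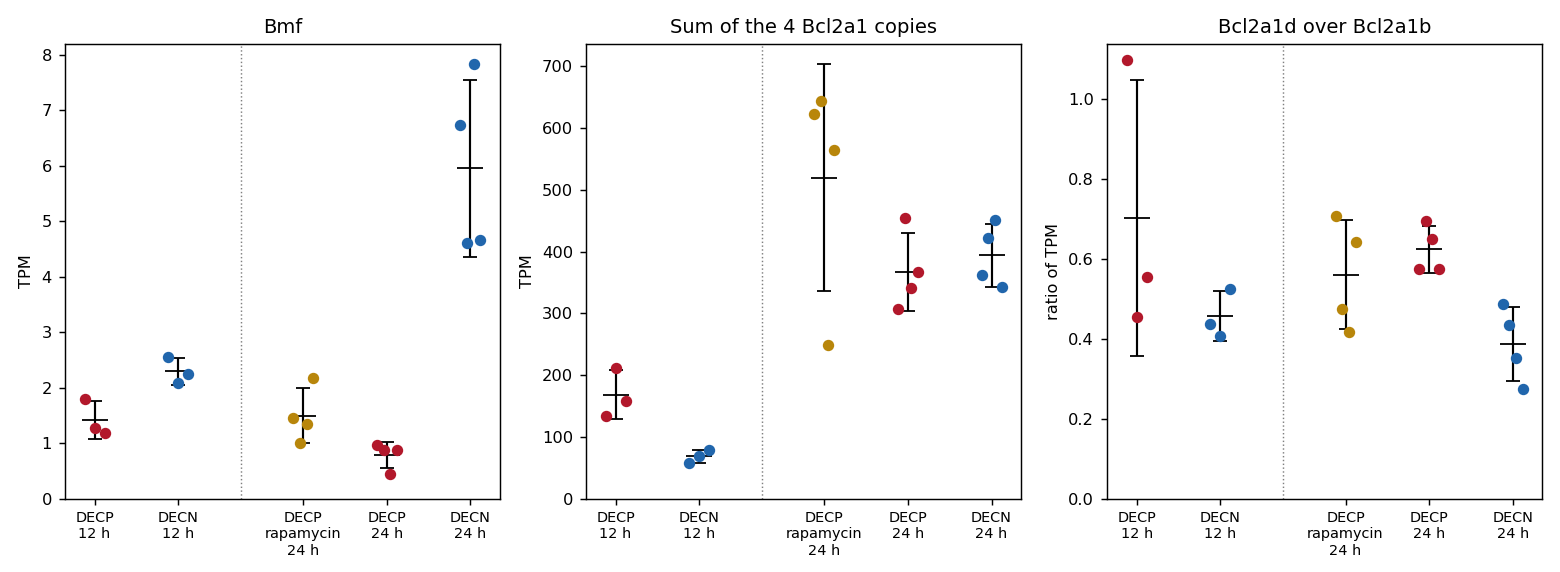
Bmf in TPM (left), the sum of the 4 Bcl2a1 copies in TPM (middle) and the level of Bcl2a1d over that of Bcl2a1b (right), by library (points) with mean and SD (black), the 12 h and 24 h tables set apart by a dotted line. Rapamycin-treated DECP libraries lie at 1.01 to 2.18 TPM of Bmf, between the DECP and DECN libraries, while the Bcl2a1 sums of the 3 groups at 24 h overlap.

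Bcl2l11, which encodes BIM, the BH3-only protein best known for removing lymphocytes, was the most abundant BH3-only transcript in each of the 5 groups on average. It had 61.8, 39.0 and 47.7 TPM in DECP cells at 12 h, against 65.1, 74.5 and 88.8 TPM in DECN cells. The groups did not overlap, with DECP lower, and the difference of -0.62 did not pass the threshold (limma adjusted p = 0.207). At 24 h it had 13.8, 9.24, 35.1 and 11.5 TPM in rapamycin-treated DECP cells, 28.6, 17.5, 15.9 and 27.9 TPM in DECP cells, and 25.1, 23.2, 25.6 and 20.6 TPM in DECN cells. The third rapamycin-treated library, lowest in the A1 copies, was the highest of the table in Bcl2l11. The other 3 rapamycin-treated libraries lay below all 8 libraries of the other groups, and none of the differences between groups passed the threshold.

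Bbc3, which encodes the p53 target PUMA, was low and scattered. At 12 h it had 7.33, 1.12 and 3.30 TPM in DECP cells and 1.32, 8.50 and 0.833 TPM in DECN cells. At 24 h its means were 5.60 ± 3.60 TPM in rapamycin-treated DECP cells, 4.24 ± 2.94 TPM in DECP cells and 5.66 ± 3.81 TPM in DECN cells (SD, n = 4 each). With such spread the 95% interval of its 12 h difference ran from -1.40 to 2.00 on the log2 scale, so changes of several fold were not detectable. Pmaip1, which encodes NOXA, a BH3-only protein that targets MCL1, averaged 8.04 ± 1.42 TPM in DECP cells and 8.29 ± 1.86 TPM in DECN cells at 12 h (SD, n = 3 each). Its difference there was -0.03 with an interval of -0.71 to 0.64. At 24 h Pmaip1 ranged from 3.84 to 12.4 TPM in rapamycin-treated DECP libraries, 2.45 to 18.6 TPM in DECP libraries and 6.01 to 14.9 TPM in DECN libraries.

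Bax, the effector, had 50.6, 55.4 and 74.3 TPM in DECP cells at 12 h, against 27.3, 31.6 and 38.2 TPM in DECN cells. The groups did not overlap, with DECP higher, and the difference of 0.87 did not pass the threshold in limma (adjusted p = 0.104). The authors' deposited table lists -0.88 for DECN over DECP with an adjusted p of 0.0283. At 24 h Bax averaged 108 ± 20.2 TPM in rapamycin-treated DECP cells, 132 ± 32.4 TPM in DECP cells and 128 ± 19.1 TPM in DECN cells (SD, n = 4 each). The DECP and DECN means at that time differed by 0.02 on the log2 scale, with an interval of -0.38 to 0.43, and the sign turned with quantile normalization. Of the 31-base words of Bax, 11.1% occur in another gene, most of them in the overlapping gene Gm45808.

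Over the whole family, 6 of the 10 genes had groups that did not overlap at 12 h, against 26.3% of all genes tested. Bcl2a1b, Bcl2a1d and Bax were higher in DECP cells, and Mcl1, Bcl2l11 and Bmf were lower, where 12.6% of all genes were higher and 13.7% lower in this sense. Bcl2a1b and Bcl2a1d are near-identical and their split is an estimate, so they are not independent members in this count. The same holds for the count from the authors' 12 h table below. The median log2 difference of the 10 was 0.14 at 12 h, beside -0.05 over all genes tested, and -0.32 at 24 h, beside 0.00. In the authors' deposited table for 12 h, 4 of the 10 genes (Bax, Mcl1, Bcl2a1b and Bcl2a1d) had an adjusted p under 0.05, against 10.7% of the 13624 genes with an adjusted p. In their 24 h tables, Bmf alone did so between DECN and DECP cells (9.1% of 12034 genes) and between DECN and rapamycin-treated DECP cells (4.38%).

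**Figure D5:**
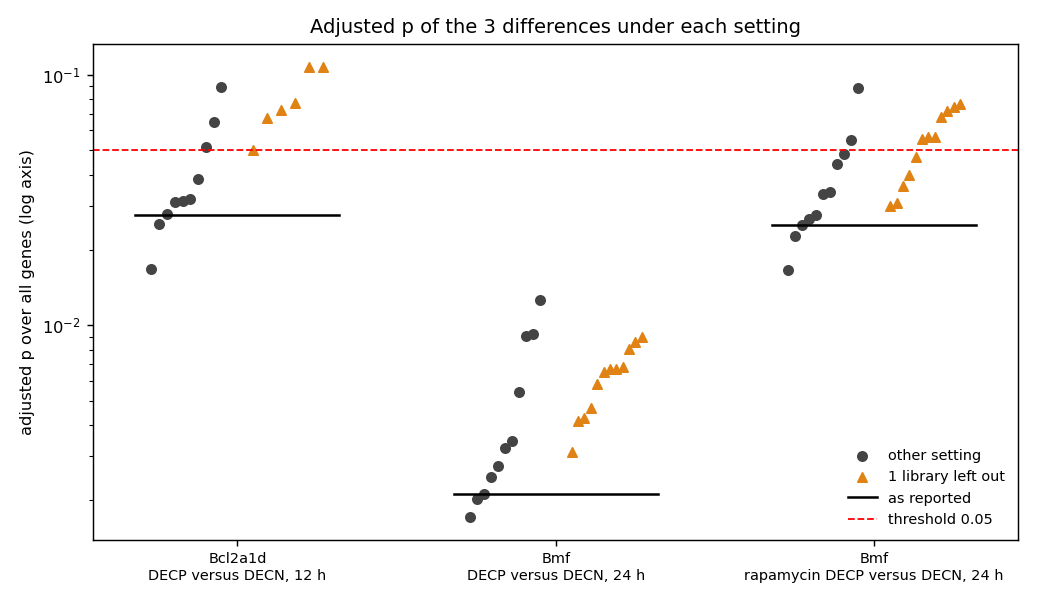
Adjusted p over all genes (log axis) of the 3 differences past the threshold, as reported (black bar), with 1 library left out (triangles) and under the other settings that tested the gene (circles), with the threshold of 0.05 as a dashed line. For Bmf in DECP against DECN cells at 24 h all points lie under the threshold, whereas for Bcl2a1d at 12 h all 6 triangles lie above it.

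Other genes of the death pathway were taken from 10 lists with 83 genes, which cover further BCL2 family members, caspases and the apoptosome, inhibitors of apoptosis, death receptors, the p53 pathway, transcription factors and kinases or ligases that act on the family's proteins. At 12 h 71 of the 83 were tested and 1 passed with DECP cells higher, against 1.84% of all genes in that direction. It was Nfkb2, which encodes the p100 precursor of the alternative NF-kB pathway, at 30.9 ± 4.63 TPM in DECP cells and 7.23 ± 1.84 TPM in DECN cells (SD, n = 3 each). Its difference was 1.97 on the log2 scale (limma adjusted p = 0.0208). The 24 h difference was 1.89 smaller than that at 12 h on the same scale (adjusted p = 0.0285), where 0.717% of all genes passed in that direction. At 24 h Nfkb2 was at 27.0 TPM in rapamycin-treated DECP, 18.9 TPM in DECP cells and 17.5 TPM in DECN cells on average. None of the 11 genes of caspases and the apoptosome passed at 12 h or at 24 h, and 1 and 3 of them had an unadjusted p under 0.05 in limma, against 19.9% and 17.7% of all genes. Nfkb2 was 1 of 15 transcription factors tested at 12 h, and 0 of 9 p53 pathway genes, 0 of 10 death receptor genes and 0 of 5 inhibitors of apoptosis passed there.

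At 24 h 74 of the 83 genes were tested. Between DECP and DECN cells 1 passed with DECP lower, against 1.32% of all genes in that direction. The gene was Trib1, a pseudokinase that brings proteins to the ubiquitin ligase COP1. It averaged 0.440 ± 0.314 TPM in DECP cells and 2.29 ± 0.769 TPM in DECN cells (SD, n = 4 each), and its difference was -1.19 (limma adjusted p = 0.0465). Trib1 reached the filter of 1 TPM through the 4 DECN libraries and 1 rapamycin-treated library, so that it was tested because it was high in DECN cells, and its call carries no weight as a count. Between rapamycin-treated DECP and DECN cells 2 passed with rapamycin-treated DECP cells higher, against 0.774% of all genes. Pim1, a kinase known to inactivate the BH3-only protein BAD, averaged 106 ± 21.2 TPM in rapamycin-treated DECP cells and 55.5 ± 6.45 TPM in DECN cells, with a difference of 0.91 (adjusted p = 0.0252). Myc, a driver of growth that can also raise BIM, averaged 51.3 ± 21.8 TPM in rapamycin-treated DECP cells and 15.4 ± 7.30 TPM in DECN cells, with a difference of 1.66 (adjusted p = 0.0452), although the groups overlapped. Between rapamycin-treated DECP and DECP cells 0 of the 74 passed in limma, against 2.18% of all genes, and 10 had an unadjusted p under 0.05, or 13.5% of the 74 against 13.9% of all genes.

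The genes most like Bcl2a1d and Bmf in pattern were found by the mean of 2 Pearson correlations of log2(TPM + 1), over 6 libraries at 12 h and 12 libraries at 24 h, among 7287 genes with a mean of at least 5 TPM in both tables. These are descriptions, since the libraries share groups and the genes were picked for their likeness. For Bcl2a1d the highest was Derl3, a component of protein export from the endoplasmic reticulum for degradation (r = 0.98 at 12 h and 0.93 at 24 h), followed by Gtpbp4, a GTPase of ribosome assembly (0.96 and 0.77), and Sub1, a transcriptional coactivator (0.88 and 0.82). Derl3 averaged 13.7 ± 1.19 TPM in DECP cells and 3.84 ± 0.520 TPM in DECN cells at 12 h (SD, n = 3 each). For Bmf the highest was Adcy7, an adenylyl cyclase (0.95 and 0.92), then Fam3c, a secreted protein (0.89 and 0.89), and Pik3c2b, a phosphoinositide kinase (0.89 and 0.88). At 24 h Adcy7 averaged 8.44 ± 1.63 TPM in rapamycin-treated DECP, 7.20 ± 0.986 TPM in DECP cells and 16.3 ± 2.76 TPM in DECN cells (SD, n = 4 each).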

How the data were processed

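RNA of 18 libraries was quantified with kallisto 0.43.0 on GRCm38, per the submitters' processing notes, which divides reads shared by near-identical copies by an estimate. Library preparation used Nextera XT, which does not mark strand, per the labels' protocols. The authors deposited 2 tables, for 12 h and 24 h, of a score that equals TPM plus 1 (TPM per the file headers, the added 1 from a lowest value of exactly 1), and 1 was subtracted. They also deposited 4 tables of their own comparisons with a mean signal per group, log2 fold changes and p-values, made with a tool not given in the sources used here. The extraction protocol names 6 conditions with 3 replicates, while 5 groups of 3 or 4 libraries are held.

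Tests used limma 3.58.1 in R 4.3.3 on log2(TPM + 1) with empirical Bayes and an intensity trend. Genes needed a TPM of 1 or more in as many libraries as the smallest group holds. Two-sided p-values were adjusted over all genes by Benjamini-Hochberg. The 12 h fit used 6 libraries, the 24 h fit 12, and the difference between times all 18. The code was checked on simulated data. Members, lists and the rule for named genes (all members, genes of the lists past the threshold, Ly75 and the 3 most similar genes) were chosen with earlier results of these data known. Alternatives covered pseudocount, filter, scaling, trend, summed Bcl2a1 copies, replicate number, second index, groups in the fit and each library left out. Sequences came from GENCODE M21 and RefSeq with Biopython 1.88. Read depth per library is unknown.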

Additional observations from a re-analysis of the deposited data

Results flagged for a closer look

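Within groups of 4 libraries, 33 sets of values were examined for a library that stood far from the other 3, and 3 did, where chance gives about 1 in 20. In DECP cells at 24 h the second library had 2.16 TPM of Bcl2, while the other 3 lay between 0.428 and 0.598 TPM. In DECN cells at 24 h the fourth library had 9.49 TPM of Bcl2l1, with the others between 3.03 and 3.96 TPM. The same library had 11.3 TPM of Bbc3, with the others between 2.97 and 4.34 TPM.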

How the results depend on the processing

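Bmf fell in DECP against DECN cells at 24 h under every alternative that tested it. Bcl2a1d at 12 h was lost with no filter, with no intensity trend and with a replicate block (adjusted p 0.0650, 0.0515 and 0.0898), and Bmf in rapamycin-treated DECP against DECN cells with no filter and with a replicate block (0.0547 and 0.0885). The cause was not tested, except that no filter tests more genes. Whether replicate numbers pair the libraries is not given by the labels. Residuals of same-numbered libraries correlated at -0.0028 to 0.053 at 12 h and -0.057 to 0.089 at 24 h. Those of differently numbered libraries correlated at -0.056 to 0.030 and -0.080 to 0.063. With only 3 same-numbered pairs at 12 h, these values cannot decide whether the libraries are paired. With the number as a block the genes called in the 4 comparisons were 0, 344, 98 and 41. Without it they were 388, 517, 279 and 167 (DECP against DECN at 12 h and at 24 h, rapamycin-treated DECP against DECP and against DECN).

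In the same order of comparisons, genes called numbered 30, 329, 164 and 52 with no filter and 103, 182, 0 and 22 with no intensity trend. A filter at TPM 5 gave 595 at 12 h, quantile normalization 130 for rapamycin-treated DECP against DECP and 103 against DECN, median centring 106 for rapamycin-treated DECP against DECN, and a fit of only the groups compared 140 for rapamycin-treated DECP against DECP. Quantile normalization moved higher and lower calls to 219 and 209 (in place of 348 and 169) for DECP against DECN at 24 h, to 76 and 54 (in place of 84 and 195) for rapamycin-treated DECP against DECP and to 49 and 54 (in place of 99 and 68) against DECN, and median centring to 53 and 232 and to 41 and 65 for the rapamycin contrasts. With 1 library left out, genes called ranged from 0 to 91 at 12 h, 273 to 542 for DECP against DECN at 24 h, 101 to 278 for rapamycin-treated DECP against DECP, 32 to 168 against DECN and 63 to 132 for the difference between times.

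Of the 10 genes, 0 were called at 12 h with no filter, no intensity trend, a replicate block or any 1 library left out, and 2 (Bcl2a1d and Mcl1) with a filter at TPM 5. For rapamycin-treated DECP against DECN, 0 were called with no filter, the TPM 5 filter or a replicate block, and 0 to 1 with 1 library left out; the TPM 5 filter also gave 0 for DECP against DECN at 24 h, since Bmf was not tested. For rapamycin-treated DECP against DECP 0 to 1 were called with 1 library left out, and for the difference between times 0 to 1, with 1 for a pseudocount of 5 or no intensity trend and 2 for quantile normalization. Signs turned only for differences that never passed: at 24 h between DECP and DECN cells, Bax under quantile normalization (-0.11) and Bcl2a1d when the copies were summed (-0.11).

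With 1 library left out the ranges that cross 0 were -0.19 to 1.04 for Bbc3 and -0.16 to 0.13 for Pmaip1 at 12 h. For DECP against DECN at 24 h they were -0.13 to 0.12 for Bax, -0.48 to 0.36 for Pmaip1 and -0.24 to 0.031 for Bcl2l11. For rapamycin-treated DECP against DECP they were -0.16 to 0.86 for Bbc3, -0.42 to 0.31 for Bcl2l1 and -0.31 to 0.10 for Mcl1. For rapamycin-treated DECP against DECN they were -0.46 to 0.45 for Bbc3 and -0.019 to 0.41 for Bcl2a1b. For the difference between times they were -0.45 to 0.39 for Pmaip1 and -0.022 to 0.52 for Bcl2.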

Other observations

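A survival gene outside the 10 described above followed Bmf in part at 24 h and was chosen after its values were seen. Bcl2l2, which encodes the survival protein BCL-w, averaged 4.10 ± 1.31 TPM in rapamycin-treated DECP cells, 1.25 ± 0.967 TPM in DECP cells and 4.35 ± 1.19 TPM in DECN cells (SD, n = 4 each). Neither rapamycin-treated DECP nor DECN libraries overlapped with DECP libraries. In limma its difference between DECP and DECN cells was -1.34 (adjusted p = 0.0599) and that between rapamycin-treated DECP and DECP cells was 1.26 (adjusted p = 0.113), so neither passed the threshold. At 12 h Bcl2l2 averaged 2.83 ± 0.852 TPM in DECP cells and 4.81 ± 0.505 TPM in DECN cells (SD, n = 3 each), with a difference of -0.62 (adjusted p = 0.288).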
